A study of Mus musculus with 20 samples.

Results

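Voltage-gated calcium and sodium channels were examined as a gene set in the hippocampus of adult mice that had been exposed to urban nano-sized particulate matter (nPM) before birth. Members were all genes annotated as protein-coding whose symbol begins with Cacna, Cacnb or Cacng, or with Scn followed by a digit. Of the 48709 genes in the count table, 40 met this rule, and 22018 genes in all were protein-coding. The 40 comprise 26 calcium channel genes and 14 sodium channel genes. By subunit they are 10 sodium channel alpha subunits (Nav alpha), 4 Nav beta subunits, 4 L-type (Cav1), 3 presynaptic-type (Cav2) and 3 T-type (Cav3) calcium channel alpha1 subunits, 4 alpha2delta subunits, 4 Cav beta subunits, 6 gamma subunits of the AMPA receptor regulatory (TARP) type and 2 gamma subunits of muscle type.

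The mice were C57BL/6J offspring, and 4 groups of 5 samples were sequenced, females and males of either prenatal exposure. One exposure was re-aerosolized nPM, which the mothers breathed from gestational day 2 on 3 days of each week, with 5 h of exposure a day. The other was filtered air, and its offspring are called controls. The dose is 300 μg/m3 in the methods of the study and 300 mg/m3 in the sample labels. No sample carries an engineered allele. Labelled ages at collection were 17.71 to 18.29 weeks in control females, 18.00 to 18.29 weeks in nPM females, 18.57 to 19.14 weeks in control males and 18.86 to 19.14 weeks in nPM males, so the ages of the sexes did not overlap. The methods also describe injections of the nucleoside EdU in males alone. The methods name 5 litters per exposure, and the litter of each sample is not given in the sources used here. If the 10 samples of an exposure came from these litters, they include littermates, which the tests treat as independent, and the p-values below measure the spread between samples.

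Sodium channels open on depolarization and carry the rising phase of the action potential. Their alpha subunits form the pore and gate it, and their beta subunits modify gating and link the channel to adhesion proteins. Calcium channels turn depolarization into calcium entry. Cav2 channels drive transmitter release, Cav1 channels couple activity to transcription, and Cav3 channels open near rest and support burst firing. The alpha2delta and Cav beta subunits carry alpha1 subunits to the membrane, while the TARP gamma subunits chiefly traffic and modulate AMPA receptors.

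The alpha subunits of each family are close copies, and that limits how well reads can be assigned to single genes. Among the Nav alpha genes, across whole coding sequences of the Gencode M21 transcripts, the longest identical run was 188 bases between Scn1a and Scn2a, 184 between Scn3a and Scn9a, and 143 for both Scn1a and Scn2a against Scn3a. The treatment of reads with several alignments is not given in the sources used here, so the split of reads among Scn1a, Scn2a, Scn3a and Scn9a is uncertain.

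Calcium channel alpha1 genes are shown at the pore loop of repeat I, where a glutamate contributes to the selectivity filter, for the 6 genes that differed between the sexes below. Capitals mark the codon of that glutamate. Sequences are the sense strand from the Gencode M21 transcripts, with GRCm38 (mm10) positions.
Cacna1a (chr8:84523168-84523200, plus strand, exon 6): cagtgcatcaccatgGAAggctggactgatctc
Cacna1b (chr2:24730680-24730712, minus strand, exon 6): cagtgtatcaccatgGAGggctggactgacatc
Cacna1c (chr6:118751378-118751410, minus strand, exon 7): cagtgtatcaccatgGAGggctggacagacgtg
Cacna1d (chr14:30178554-30178586, minus strand, exon 7): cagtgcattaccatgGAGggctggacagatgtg
Cacna1h (chr17:25393729-25393731 and chr17:25393574-25393603, minus strand, starting in exon 7): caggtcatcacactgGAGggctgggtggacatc
Cacna1i (chr15:80355799-80355801 and chr15:80356129-80356158, plus strand, starting in exon 7): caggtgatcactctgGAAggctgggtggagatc

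Of 33 bases, Cacna1b shares 29 with Cacna1a, Cacna1d 28, Cacna1c 27, and both T-type genes 23. The longest identical coding run was 35 bases between Cacna1a and Cacna1b, 43 between Cacna1c and Cacna1d, and 50 between Cacna1h and Cacna1i.

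Libraries held between 19092067 and 38663408 reads counted on genes, with 19092067 to 35480715 in females and 28026459 to 38663408 in males. Channel genes took between 93852 and 174829 of these reads per sample. Of the 5 sex marker genes, 4 were higher in males and 1 higher in females at p under 0.005. Markers of hippocampal neurons were present in every sample (10 genes, summed level 889.9 to 2015 CPM, counts scaled to normalized library size). This sum rests largely on Zbtb20, with a median of 768.3 CPM (399.5 to 1285), beside 158.0 CPM for Neurod6. The summed level of 13 choroid plexus markers ranged from 44.0 to 8976 CPM, and that of 14 striatum markers was 745.3 CPM in nPM female 1 and 228.1 to 301.3 CPM in the other samples.

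Levels were compared between genes as RPKM, reads scaled by annotated exon length and library size, and are given for the 10 controls as mean ± SD (n = 10). The 10 Nav alpha genes summed to 118 ± 9.63 RPKM, 21.2% of the summed level of all 40 genes. Cav beta genes summed to 69.2 ± 6.26 RPKM, alpha2delta genes to 67.7 ± 7.90 RPKM, TARP gamma genes to 53.0 ± 7.52 RPKM and Cav2 genes to 51.9 ± 11.9 RPKM. Cav3 and Cav1 genes were much lower, at 14.6 ± 4.03 and 13.9 ± 4.0 RPKM. The 2 muscle-type gamma genes summed to 0.570 ± 0.208 RPKM. Sums are not given for every class, so these do not rank the classes.

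Among the Nav beta genes, which modify gating, Scn2b was at 51.6 ± 4.10 RPKM and Scn3b at 43.0 ± 6.06 RPKM, while Scn4b was lower at 5.19 ± 1.49 RPKM (controls, n = 10).

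Scn2a, the channel of axon initial segments and unmyelinated axons, was the highest alpha subunit at 55.4 ± 7.93 RPKM (controls, n = 10). Its range was 45.6 to 54.2 RPKM in control females, 41.9 to 63.8 in nPM females, 51.2 to 71.6 in control males and 44.8 to 60.6 in nPM males. Scn8a, the channel of nodes and mature initial segments, followed at 26.9 ± 4.44 RPKM and Scn1a, the channel prominent in inhibitory interneurons, at 23.98 ± 3.70 RPKM. Scn3a, the alpha subunit prominent in the developing brain, was at 9.47 ± 0.720 RPKM.

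Other Nav alpha genes are known chiefly from glia, sensory neurons or skeletal muscle, and those named here were below 1 RPKM in the controls on average. Scn7a, an atypical sodium-sensing channel of glia, was at 0.781 ± 0.410 RPKM, and Scn9a, a channel of sensory neurons, at 0.407 ± 0.189 RPKM. Scn10a and Scn11a, both of sensory neurons, and Scn4a, of skeletal muscle, held at most 14, 12 and 9 counts in any sample.

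Among calcium channel alpha1 genes, Cacna1e (R-type) was the highest at 28.4 ± 4.85 RPKM, above Cacna1b (N-type, 12.9 ± 3.23 RPKM) and Cacna1a (P/Q-type, 10.6 ± 4.19 RPKM). Cacna1d and Cacna1c, the neuronal L-type genes, were at 7.46 ± 2.32 and 6.36 ± 1.74 RPKM. The deposited exon length of Cacna1d is 9242 bases, beside 12621 bases in Gencode M21, so its place in this order depends on the annotation. Cacna1h, Cacna1i and Cacna1g, the T-type genes, were at 6.03 ± 2.28, 5.33 ± 1.41 and 3.27 ± 1.05 RPKM. Cacna1s, the skeletal muscle L-type channel, was near the bottom at 0.0809 ± 0.0295 RPKM, with 3 to 31 counts per sample. Cacna1f, known from the retina, held at most 7 counts.

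Cacna2d3 (35.4 ± 6.85 RPKM) and Cacna2d1 (28.3 ± 4.67 RPKM) led the alpha2delta genes, and Cacna2d2 was at 3.85 ± 1.74 RPKM. The level of Cacna2d3 depends on the annotation, since its exon length is 3695 bases in the deposited table and 8720 bases in Gencode M21. Cacna2d4 was low, at 0.176 ± 0.0493 RPKM. Cacnb4 was the highest Cav beta gene at 32.1 ± 6.36 RPKM, above Cacnb3 (18.5 ± 2.77), Cacnb1 (12.1 ± 1.79) and Cacnb2 (6.48 ± 0.933). For Cacnb3 the exon length also differs, with 3120 bases deposited and 4010 in Gencode M21. Of the exon bases of Cacnb4, 15.99% are shared with a gene on the opposite strand, so with the strand setting unknown its counts are uncertain, here and in the results below. Cacng8, the main TARP of hippocampal pyramidal cells, led the gamma genes at 18.6 ± 5.08 RPKM, followed by Cacng7 (10.8 ± 0.754), Cacng3 (9.88 ± 1.74), Cacng2 (7.01 ± 1.23), Cacng5 (3.86 ± 1.63) and Cacng4 (2.96 ± 0.720). Cacng6, of muscle type, was at 0.547 ± 0.225 RPKM, while Cacng1 held at most 4 counts.

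With the 40 members ordered by level, the ranges of the 10 controls overlapped in 38 of 39 neighbouring pairs. The exception was the step from Cacng4 (lowest control 2.32 RPKM) to Scn7a (highest control 1.67 RPKM). A filter on low counts left 35 of the 40 members for tests. It removed Scn10a, Scn11a, Scn4a, Cacna1f and Cacng1.

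**Figure D1:**
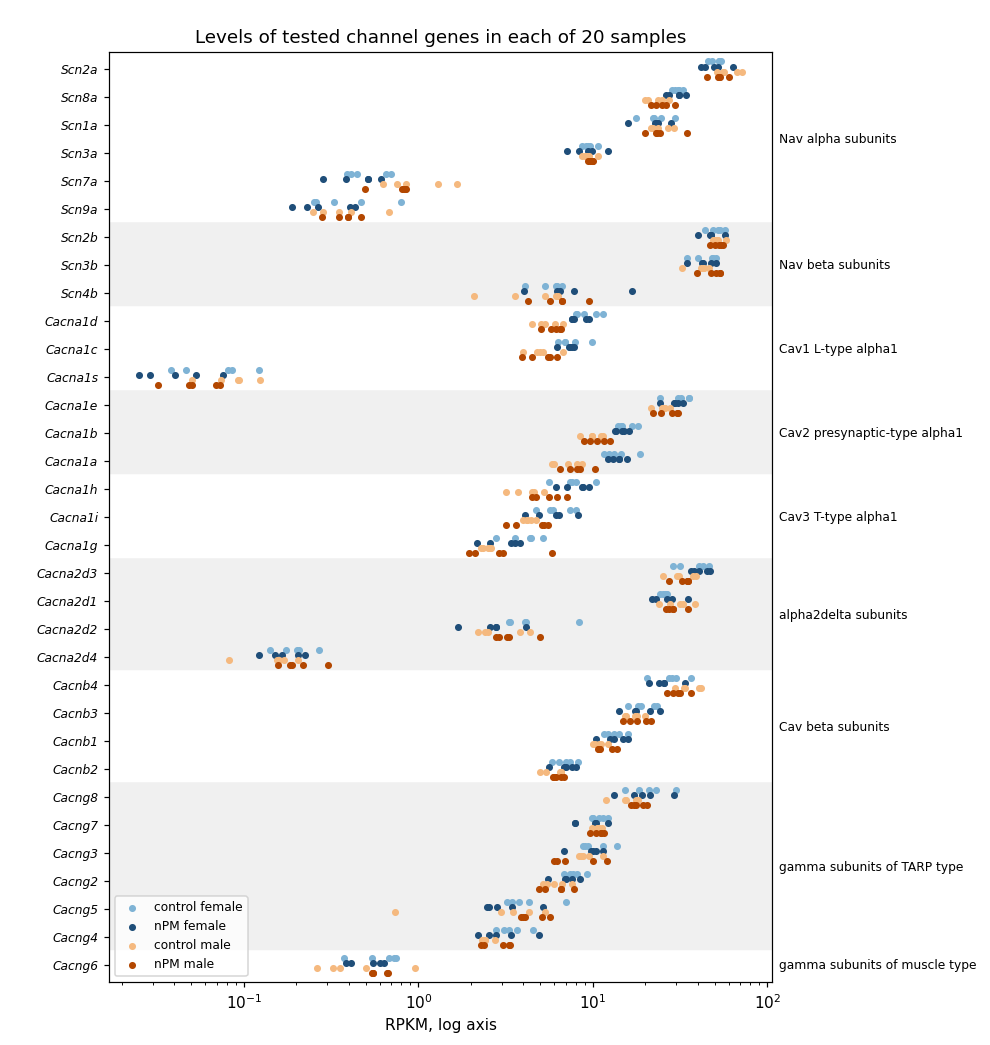
Level of tested channel genes in RPKM (log axis), 1 point per sample, coloured by group and banded by subunit class. Levels span from Cacna1s, with a control mean of 0.0809 RPKM, to Scn2a, with 55.4 RPKM, and Scn4b, Cacng5 and Cacna2d2 each have single samples far from the rest.

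The first question was whether gestational nPM altered these genes in adulthood. No channel gene passed p under 0.005, the threshold of the study, in any of the 4 tests of nPM by limma-voom. This count of 0 of 35 stands beside 0.141% of all 19797 tested genes with both sexes in 1 model (sex as a covariate), 0.207% in males, 0.0909% in females and 0.217% for the difference between the effects in males and females. The edgeR quasi-likelihood test and the DESeq2 Wald test also gave 0 of 35 in each. All adjusted p-values of the members, Benjamini-Hochberg values over all tested genes from limma, were at or above 0.963.

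At an unadjusted p under 0.05, 2 of 35 members passed with both sexes combined (background 2.1%), 3 in males (4.28%), 1 in females (1.99%) and 2 for the difference (3.79%). Ranges of controls and nPM samples overlapped for every tested member in both sexes, where 0.662% of all genes did not overlap in males and 0.349% in females. The 95% interval of the nPM effect lay within a 2-fold change for 33 of 35 members with both sexes combined, 30 in males and 30 in females.

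Cacna1s had the smallest p with both sexes combined. Its counts were 25, 8, 18, 9 and 12 in control females, 15, 4, 10, 3 and 8 in nPM females, 13, 17, 9, 31 and 22 in control males, and 17, 15, 11, 12 and 7 in nPM males. Samples of both exposures overlapped in each sex. The log2 fold change was -0.65 ± 0.24 (SE, 95% interval -1.16 to -0.14, limma adjusted p = 0.9998). Without control female 4 the value was -0.75, past p under 0.005. Of its annotated exon bases, 19.99% are shared with a gene on the opposite strand, and the strand setting of the counting is not given in the sources used here.

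Scn4b, the beta subunit behind resurgent sodium current, had a log2 fold change of 0.47 ± 0.22 with both sexes combined (95% interval 0.016 to 0.93, limma adjusted p = 0.9998). It was at 6.69, 6.26, 5.32, 6.11 and 4.06 RPKM in control females, 16.8, 6.23, 6.51, 4.01 and 7.75 in nPM females, 2.08, 5.30, 6.34, 6.14 and 3.57 in control males, and 9.46, 5.68, 4.23, 6.69 and 6.61 in nPM males. The highest value belonged to nPM female 1, the sample with 745.3 CPM of striatum markers, and Scn4b is itself abundant in striatum. Without single samples the log2 fold change of Scn4b ranged from 0.33 to 0.57, with limma p-values from 0.013 to 0.098. The part of the striatum markers in the result was not tested.

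In males, the members with the smallest p were Cacna1h, Scn3b and Cacna1s. Cacna1h was at 3.16, 4.48, 3.74, 4.58 and 5.22 RPKM in control males and 7.13, 4.45, 5.58, 4.74 and 6.27 in nPM males, a log2 fold change of 0.40 ± 0.15 (95% interval 0.069 to 0.74, limma adjusted p = 0.963). In females its log2 fold change was 0.07 ± 0.16. An exact permutation test of the males gave p = 0.0556 (two-sided, 5 against 5, smallest possible 0.00794).

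Scn3b, a beta subunit of forebrain neurons, was at 32.3, 43.0, 46.1, 43.5 and 41.6 RPKM in control males and 39.5, 53.2, 53.3, 47.7 and 50.7 in nPM males. This gave a log2 fold change of 0.24 ± 0.11 in males (95% interval 0.010 to 0.48, limma adjusted p = 0.963) and -0.02 ± 0.13 in females. The lowest value of each male group was in the sample numbered 1.

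In females, Cacna2d2 had the smallest p, and Cacna1g was among the members that followed. Cacna2d2, an alpha2delta subunit of interneurons and cerebellar Purkinje cells, was at 4.08, 4.15, 8.30, 3.32 and 3.36 RPKM in control females and 4.14, 2.57, 2.79, 1.69 and 2.79 in nPM females. This gave a log2 fold change of -0.65 ± 0.26 (95% interval -1.22 to -0.080, limma adjusted p = 0.9999), and its exact permutation p was 0.0476, or 0.649 after adjustment over 46 tests. Control female 3 held the highest value and also 504.8 CPM of thalamus markers, the highest of the control females. Without single samples the value in females ranged from -0.82 to -0.42.

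Cacna1g was at 5.20, 4.38, 4.42, 2.79 and 3.57 RPKM in control females and 2.57, 3.58, 3.81, 2.18 and 3.37 in nPM females, with a log2 fold change of -0.36 ± 0.18 (95% interval -0.76 to 0.032).

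The difference between the nPM effects of the sexes had its smallest p for Cacna2d2, and Cacng5 was among the members that followed. In males, Cacna2d2 was at 2.18, 3.80, 2.51, 4.39 and 2.42 RPKM in controls and 5.00, 3.23, 2.79, 3.30 and 2.89 after nPM. The difference, males minus females, was 0.85 ± 0.37 (95% interval 0.079 to 1.62) for Cacna2d2 and 0.99 ± 0.50 (-0.051 to 2.04) for Cacng5, each with a limma adjusted p of 0.988. Cacng5, a TARP that is enriched in CA2, was at 0.739 RPKM in control male 1 and 2.99 to 5.32 RPKM in the other control males. Without single samples its difference ranged from 0.56 to 1.24.

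The signs of the fitted values differed between the sexes, although no member passed the test. In males 28 of 35 log2 fold changes were above 0, with a median of 0.0719 beside -0.00132 for all tested genes, of which 50.4% were below 0. In females 27 of 35 were below 0, beside 48.8% of all tested genes, with a median of -0.0879 beside 0.00376. The members were measured in the same libraries and are not independent, so these counts of signs do not test an effect of nPM. The median difference, males minus females, was 0.14 beside 0.01 for all genes. By class, the medians in males ran from 0.01 for the 3 tested Cav1 genes to 0.25 for the Cav3 genes, and those in females from -0.15 for Cav1 to 0.04 for the Nav beta genes. Cacng6, the single tested gene of muscle type, had 0.42 in males and -0.22 in females.

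Genes annotated as intronic RNA had medians of the same signs, although none of them passed p under 0.005 in either sex by limma. The 186 tested genes of the annotation type sense intronic had a median log2 fold change of 0.24 in males and -0.14 in females, and 1325 genes of the annotation type TEC, transcribed loci without a settled gene model, had 0.22 and -0.15, with 4 passing in males and 0 in females. Protein-coding genes had medians of -0.01 and 0.01. With the summed level of sense intronic genes as a covariate, the median of the channel genes was 0.01 in males and -0.04 in females. In that fit 19 channel genes were higher and 16 lower in males, and 10 higher and 25 lower in females. This covariate was added after the data had been seen. The part of intronic RNA in the signs of the channel genes was not tested.

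**Figure D2:**
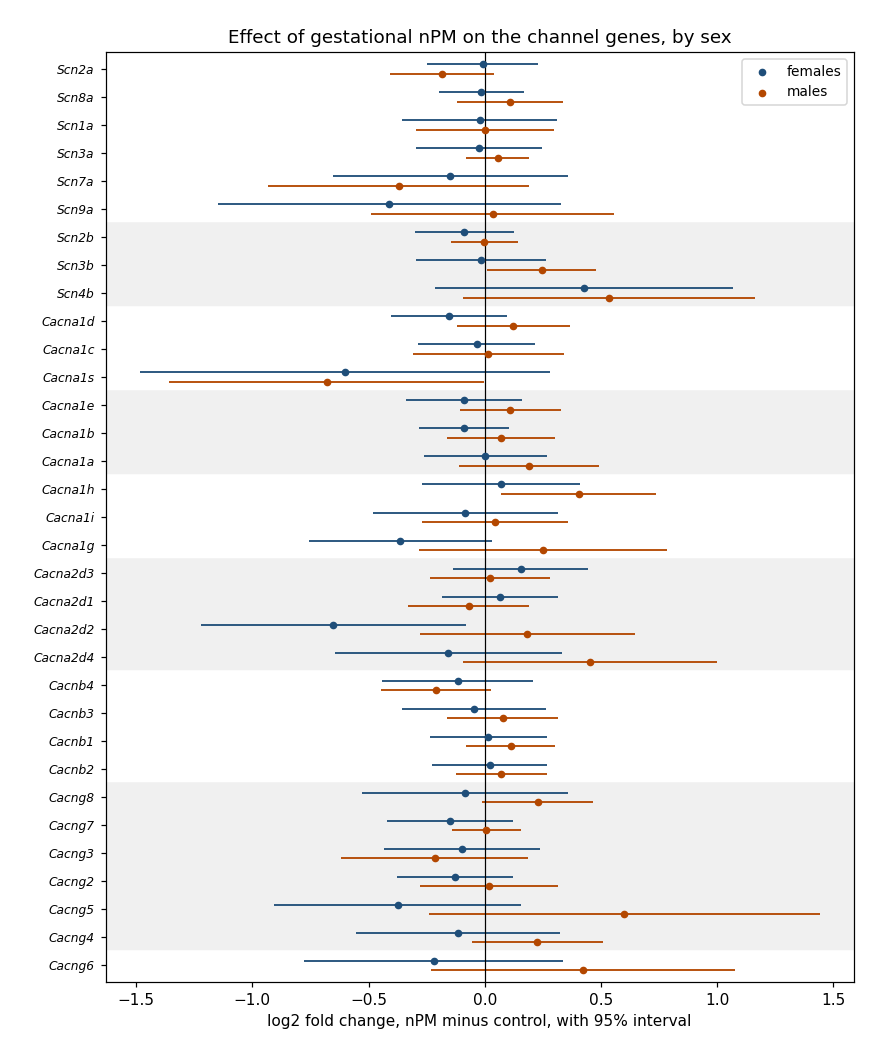
Log2 fold change of tested channel genes after gestational nPM in females and in males, with 95% intervals from limma. Most intervals include 0, and those of Cacna1h, Scn3b and Cacna1s in males and of Cacna2d2 in females end on 1 side of it without passing p under 0.005.

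Partner genes of the channels went through the same 4 tests of nPM by limma. None of 22 sodium channel partners and none of 36 calcium channel partners passed p under 0.005, beside 0.0909% to 0.217% of all genes. At p under 0.05, 3 of 22 sodium channel partners passed for the difference of the nPM effects (background 3.79%) and 0 elsewhere. Of 36 calcium channel partners, 1 passed with both sexes combined (background 2.1%), 2 in males (4.28%), 0 in females (1.99%) and 1 for the difference (3.79%). Stac, an adaptor that stabilizes L-type channels, had the smallest p, with a log2 fold change of 0.66 ± 0.21 in males (limma adjusted p = 0.963) and 0.05 ± 0.17 in females. Stx1a, a syntaxin that binds Cav2 channels, had -0.51 ± 0.19 in males (limma adjusted p = 0.963). Cnih3, an AMPA receptor auxiliary protein, had -0.27 ± 0.13 in females (limma adjusted p = 0.9999), and Cntn2, a contactin of the juxtaparanode, a difference of the nPM effects, males minus females, of 0.46 ± 0.21 (limma adjusted p = 0.988).

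The second question was whether the channel genes differed between the sexes. In the model of all 20 samples with sex and exposure, 8 of 35 members (22.9%) passed p under 0.005, beside 31.1% of all tested genes and 29.2% of tested protein-coding genes. Of the 8, 7 were lower in males and 1 was higher, where 17.1% of all genes were lower and 13.9% higher. Among the 15007 tested protein-coding genes the direction was the reverse, with 1740 lower and 2637 higher in males. At a limma adjusted p under 0.05, 13 of 35 passed (37.1%, background 40.4%), 11 lower and 2 higher in males. The 5 members that passed by this measure alone were Cacna1e (-0.22 ± 0.08), Cacnb1 (-0.23 ± 0.07), Cacna2d3 (-0.27 ± 0.09), Cacng2 (-0.27 ± 0.09) and Cacnb4 (0.29 ± 0.10), as log2 fold changes ± SE. With both directions counted together, the share passing was below that of all genes, and close to it by adjusted p. The members lower in males alone, 7 of 35 at p under 0.005, were near the 17.1% of all genes and above the share of protein-coding genes. Whether the direction in the members differed from that in protein-coding genes was not tested. All tested genes had a median of 0.02, with 47.8% lower in males, and protein-coding genes a median of 0.07. Over the 35 members the median was -0.15, with 23 of 35 lower in males. In the controls alone the median was -0.34, with 28 lower. With the intronic RNA covariate described below it turned to 0.04, with 22 higher and 13 lower.

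In this fit the 7 lower members were pore-forming subunits, and 6 of them were alpha1 subunits of calcium channels. Both neuronal L-type genes, 2 of 3 Cav2 genes and 2 of 3 Cav3 genes were among them, with Scn8a as the only sodium channel gene. None of the 15 tested alpha2delta, Cav beta, TARP gamma and muscle-type gamma genes passed p under 0.005 in it, nor did any of the 4 Nav beta genes. That split depended on the fit. Cacnb1 passed p under 0.005 by edgeR and DESeq2, with robust moderation, with sample quality weights and with protein-coding genes alone, with log2 fold changes from -0.28 to -0.23. Cacnb4 passed by DESeq2, without the filter, with sample weights and after the GC correction (0.28 to 0.30). Cacna2d3 and Cacng2 passed with weights and with protein-coding genes alone, and Cacng4 in the controls alone (-0.50). Whether pore-forming and other subunits differed in their sex difference was not tested.

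Cacna1a, the P/Q-type alpha1 subunit of fast synapses, differed most. It was at 11.6, 13.3, 14.5, 12.4 and 18.7 RPKM in control females, 12.1, 14.2, 15.6, 14.2 and 12.96 in nPM females, 5.80, 7.25, 8.68, 5.98 and 8.10 in control males, and 7.42, 6.49, 8.12, 8.42 and 10.3 in nPM males. Every female sample lay above every male sample. It was lower in males by a log2 fold change of -0.87 ± 0.10 (SE, n = 10 per sex, limma adjusted p = 3.49e-06).

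Cacna1b, the N-type subunit of presynaptic terminals, was at 14.0, 14.8, 16.8, 14.6 and 18.1 RPKM in control females, 13.5, 15.1, 16.1, 14.6 and 13.3 in nPM females, 9.82, 9.85, 11.2, 8.43 and 11.4 in control males, and 9.64, 8.94, 10.5, 11.6 and 12.5 in nPM males. This gave a log2 fold change of -0.54 ± 0.07 (limma adjusted p = 1.38e-05).

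Cacna1d, an L-type subunit that opens at low voltages, was at 8.92, 8.08, 10.4, 8.02 and 11.4 RPKM in control females, 7.54, 9.08, 7.58, 9.56 and 7.79 in nPM females, 5.07, 5.35, 6.10, 4.50 and 6.73 in control males, and 6.44, 5.06, 5.74, 6.17 and 6.60 in nPM males. Its log2 fold change was -0.61 ± 0.09 (limma adjusted p = 2.63e-05). Cacna1a, Cacna1b and Cacna1d were the 3 of 35 members whose female and male ranges did not overlap, beside 4.82% of all genes, and 3.15% with males lower. Exon bases shared with a gene on the opposite strand made up 4.67% of Cacna1d and 3.81% of Cacna1a.

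Cacna1h, a T-type subunit, was at 5.62, 8.01, 7.39, 7.64 and 10.5 RPKM in control females and 9.496, 8.79, 8.66, 6.16 and 7.08 in nPM females, above most males, whose values are given above. The log2 fold change was -0.69 ± 0.12 (limma adjusted p = 0.000148). Cacna1c, the main L-type subunit of forebrain, was at 6.34, 6.91, 7.92, 6.89 and 9.91 RPKM in control females, 7.28, 7.84, 7.39, 7.55 and 6.27 in nPM females, 4.99, 4.80, 5.16, 3.97 and 6.73 in control males, and 4.50, 3.92, 5.54, 5.69 and 6.21 in nPM males. Its log2 fold change was -0.54 ± 0.10 (limma adjusted p = 0.000204).

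Cacna1i, a T-type subunit of thalamus and interneurons, ranged from 4.69 to 8.05 RPKM in control females, 4.09 to 8.19 in nPM females, 3.997 to 4.74 in control males and 3.19 to 5.53 in nPM males, a log2 fold change of -0.46 ± 0.12 (limma adjusted p = 0.00535). Scn8a ranged from 28.3 to 32.7 RPKM in control females, 26.2 to 34.03 in nPM females, 19.9 to 27.1 in control males and 21.6 to 29.6 in nPM males. Its log2 fold change was -0.33 ± 0.07 (limma adjusted p = 0.000643), while the other abundant Nav alpha genes did not pass, with 0.16 ± 0.08 for Scn2a, 0.11 ± 0.11 for Scn1a and 0.04 ± 0.07 for Scn3a.

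Scn7a was the member that was higher in males. It was at 0.654, 0.391, 0.697, 0.447 and 0.412 RPKM in control females, 0.514, 0.513, 0.383, 0.284 and 0.613 in nPM females, 1.67, 0.847, 0.629, 0.758 and 1.298 in control males, and 0.853, 0.825, 0.835, 0.810 and 0.495 in nPM males. This gave a log2 fold change of 0.83 ± 0.19 (limma adjusted p = 0.00149). In the controls alone it was 0.91 and did not pass p under 0.005 (limma adjusted p = 0.0353), whereas the other 7 genes passed there too, with log2 fold changes from -0.99 for Cacna1a to -0.41 for Scn8a.

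**Figure D3:**
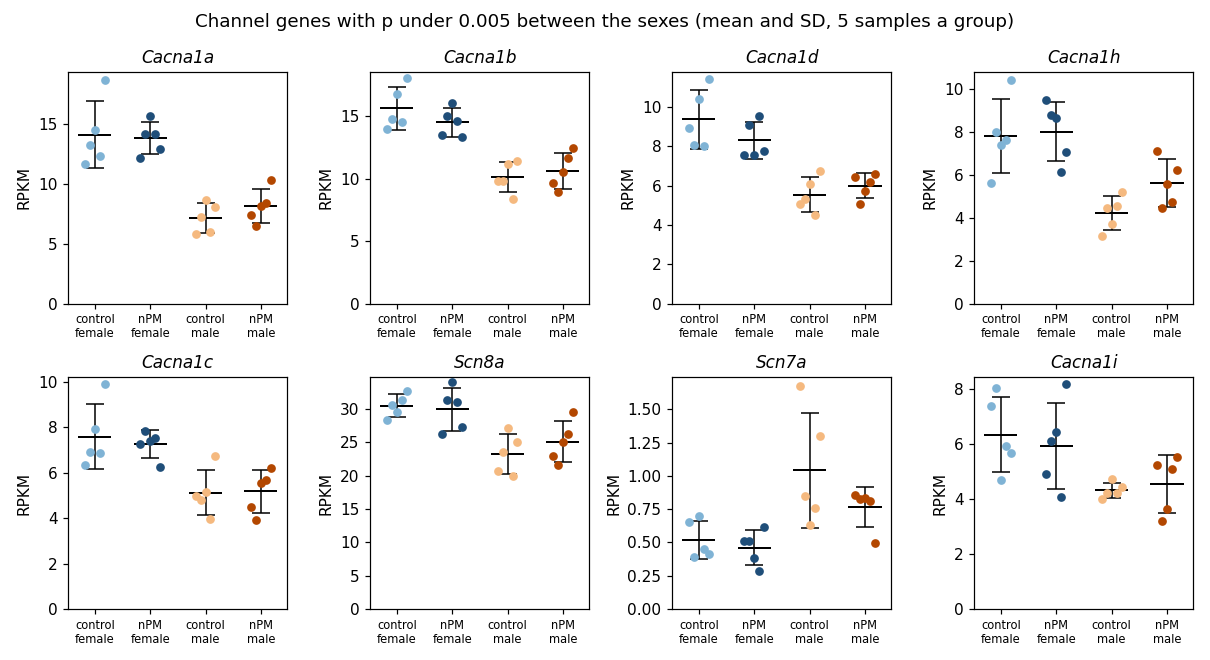
RPKM of the 8 channel genes with p under 0.005 between the sexes, 1 point per sample in each of 4 groups, with the group mean and SD (n = 5). Group means of females lie above those of males in the 6 calcium channel genes and Scn8a, with no overlap of points between the sexes in Cacna1a, Cacna1b and Cacna1d, and below them in Scn7a.

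Sex cannot be told apart here from age, since the sexes were collected at ages that did not overlap, or from the EdU injections of males. Markers of some other cell types differed as well, where 17.1% of all genes were lower and 13.9% higher in males at p under 0.005. Among the 15007 tested protein-coding genes, 1740 were lower and 2637 higher. Of 8 endothelial markers 4 were lower in males at that threshold, with summed levels of 211.2 to 273.1 CPM in females and 162.9 to 210.6 CPM in males. Of 8 astrocyte markers 4 were higher in males. So were 2 of 8 microglia markers and 2 of 10 oligodendrocyte markers, counts that rest on few genes. None of 10 hippocampal neuron markers passed (median log2 difference -0.20), nor did any of 12 interneuron markers (0.13). The part of these cell types in the sex difference of the channel genes was not tested. Male libraries also held less RNA annotated as intronic. The 186 sense intronic genes had a median log2 difference of -1.04 and 144 of them were lower in males at p under 0.005. Their summed level was 663.3 to 1001 CPM in control females, 587.4 to 801.0 in nPM females, 426.9 to 551.5 in control males and 452.2 to 615.8 in nPM males.

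Of these members, 1 passed p under 0.005 with that summed level as a covariate, beside 2.01% of all genes (397 of 19797). It was Cacna1a, at -0.43 ± 0.13 with a limma adjusted p of 0.244. The values became -0.23 ± 0.10 for Cacna1b, -0.16 ± 0.11 for Cacna1d, -0.46 ± 0.21 for Cacna1h, -0.21 ± 0.16 for Cacna1c, -0.22 ± 0.22 for Cacna1i, -0.10 ± 0.11 for Scn8a and 0.74 ± 0.34 for Scn7a. The summed level differs between the sexes itself, so standard errors were larger in this fit, and the part of this RNA in the sex difference cannot be told apart from sex.

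Across protein-coding genes the sex difference also varied with transcript length and composition. Protein-coding genes with the shortest exon lengths, up to 2261 bases (3005 of 15007 genes), had a median log2 difference of 0.22 and those with the longest, from 7033 bases (3001 genes), of -0.06. The longest group held 20 of the 35 members and all 8 that passed. Spearman's rho between the sex difference and exon length was -0.34 across 15007 protein-coding genes but -0.0955 across the 35 members. Across the 35 members, rho between the sex difference and the GC content of the longest transcript was -0.44, beside -0.20 across 14982 protein-coding genes. These are descriptions across genes of the same libraries. After a GC correction within each sample, 9 members passed, and the 8 genes were among them.

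**Figure D4:**
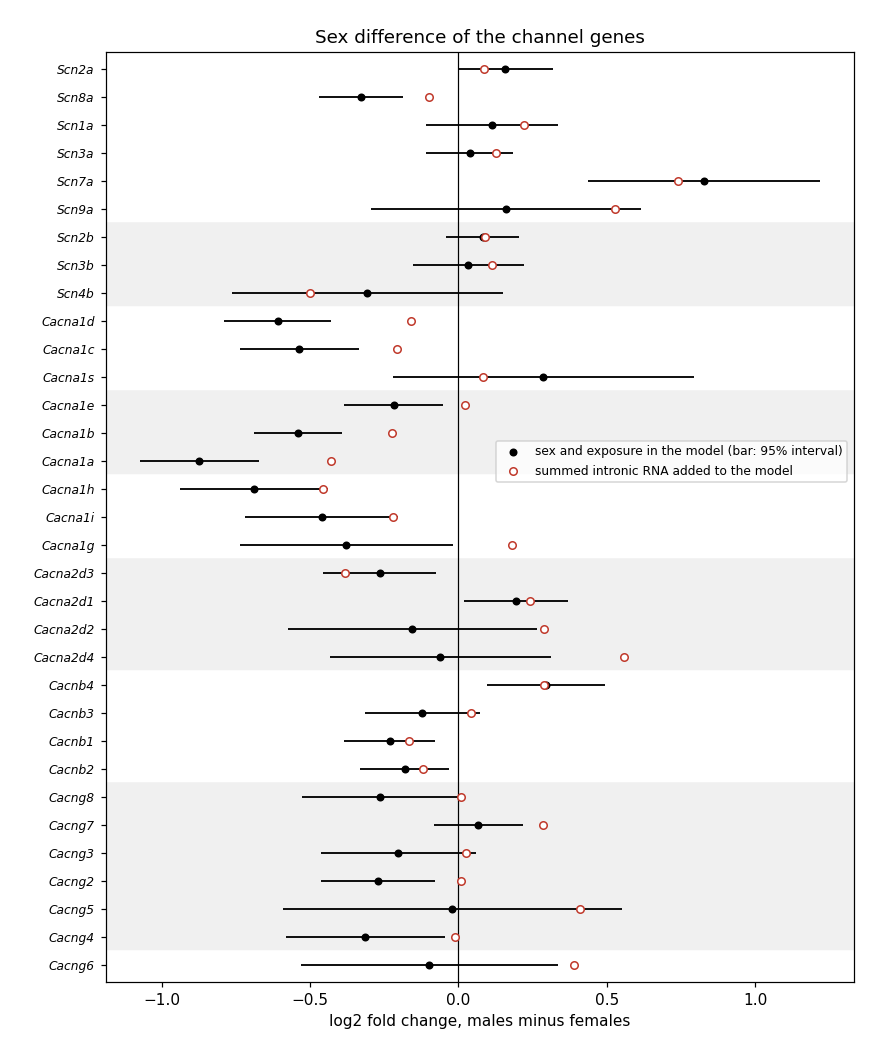
Log2 difference between males and females of tested channel genes, with the 95% interval (black), and the value after the summed level of sense intronic genes was added to the model (open circles). With the covariate the values of the 6 called calcium channel genes lie closer to 0, between -0.46 and -0.16, while those of some genes that did not pass, such as Cacna2d4, lie farther from 0.

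Partner genes were put to the same test. Of 22 sodium channel partners, 8 were higher and 6 lower in males, and of 36 calcium channel partners 1 was higher and 12 were lower. Of all genes 31.1% passed, 13.9% higher and 17.1% lower. Of the 15007 tested protein-coding genes, 2637 were higher and 1740 lower. With both directions together, the calcium channel partners were near the share of all genes and the sodium channel partners above it. Lower sodium channel partners included Nfasc (-0.57 ± 0.08), the neurofascin of initial segments and nodes, Ank3 (-0.37 ± 0.06), the ankyrin that anchors sodium channels there, and Sptbn4 (-0.38 ± 0.09), its spectrin. Higher ones included the calmodulin genes Calm2 (0.38 ± 0.08) and Calm3 (0.23 ± 0.05). Lower calcium channel partners included Bsn (-0.80 ± 0.14) and Rimbp2 (-0.41 ± 0.08), scaffolds of the presynaptic active zone, and the ryanodine receptors Ryr1 (-0.70 ± 0.15), Ryr3 (-0.60 ± 0.11) and Ryr2 (-0.26 ± 0.08). Cacul1 (0.30 ± 0.04), a cullin family gene that is not an established partner but was in the list, was the higher one. With it left aside, no calcium channel partner was higher.

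Within groups, the spread was large for Cacng5 (SD of 0.65 on the log2 scale, pooled over the 4 groups), Scn4b (0.57), Cacna1s (0.54) and Scn9a (0.53). Scn2b, with 0.13, varied little. Members with low counts were among the variable ones, but Cacng5 (median 469 counts) and Scn4b (median 862 counts) were not limited by counting. The level of each of 23 named members was compared with 18 summed levels (17 marker lists and the sense intronic genes) across the 20 samples with group means removed, 414 relations in all.

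Only the relation of Cacnb4 with 13 neocortex markers passed an adjusted p of 0.05 by both coefficients. Pearson's r was 0.81 (permutation p = 1e-05, the smallest that 100000 permutations can give, adjusted p = 0.00414) and Spearman's rho was 0.81 (permutation p = 2e-05, adjusted p = 0.00828). Without the 2 samples farthest from the median of the markers, r was 0.74. The sum is weighted by level, and Mef2c alone had a median of 317.2 CPM over the samples (125.1 to 530.8). Rorb, the next of these markers, had a median of 55.3 CPM. The relation therefore rests largely on Mef2c, and whether the other markers moved with Cacnb4 was not tested. The summed neocortex markers ranged from 331.8 CPM in nPM female 1 to 889.0 CPM in control male 3. Cacnb4 was at 21.1 and 40.4 RPKM in these samples.

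Cacna2d2 followed 14 thalamus markers by Pearson's r (0.81, permutation p = 0.00044, adjusted p = 0.0455) but not by Spearman's rho after adjustment (0.69, adjusted permutation p = 0.128). Without the 2 samples farthest from the median, r was 0.71. Scn2a ran against 10 oligodendrocyte markers (r = -0.74, adjusted permutation p = 0.0455, rho = -0.73, adjusted permutation p = 0.101), and Cacna2d3 against the thalamus markers (r = -0.76, adjusted permutation p = 0.0455, rho = -0.65, adjusted permutation p = 0.133). In bulk tissue, fewer cells of a type and less RNA per cell cannot be told apart.

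**Figure D5:**
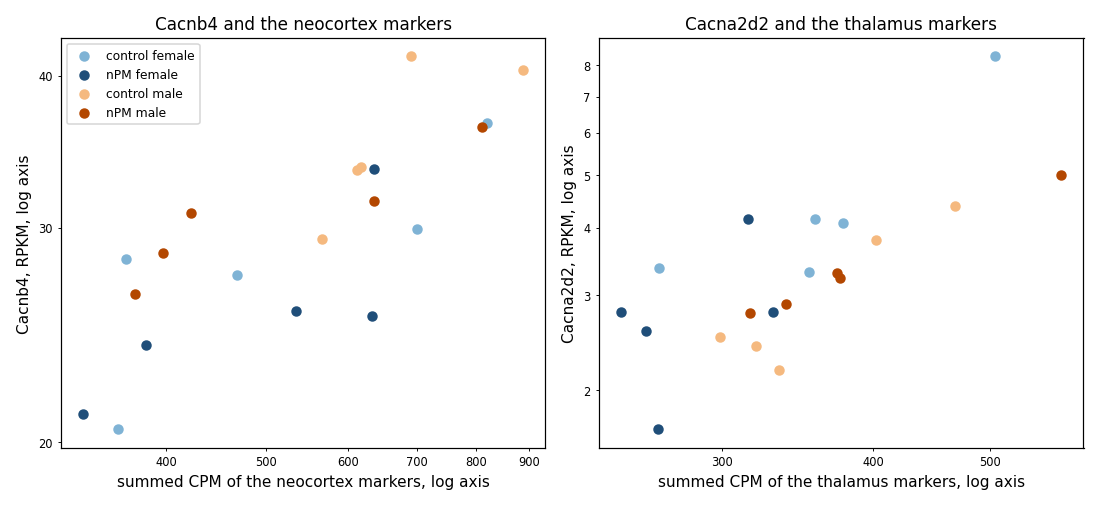
RPKM of Cacnb4 against the summed CPM of neocortex markers and of Cacna2d2 against that of thalamus markers, both axes on log scales, 1 point per sample coloured by group. Cacnb4 runs from 20.5 RPKM at 358.8 CPM to 41.5 RPKM at 691.6 CPM, and the highest Cacna2d2 values, 8.30 and 5.00 RPKM, are in the samples with 504.8 and 573.0 CPM.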

How the data were processed

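RNA of 20 hippocampi was sequenced after ribosomal RNA depletion. The authors used HISAT2 for alignment to mm10 and featureCounts 1.5.0-p3 with Gencode M11 for counting, and they deposited whole-number counts without normalization. The deposited gene table also holds gene lengths and each gene's mean RPKM over all samples. That mean matched the counts within 4.91e-11 and entered no test. A count of 0 allows up to 3 counts, which covers counting error only.

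Genes were kept by filterByExpr of edgeR 4.0.16 over the 4 groups (minimum count 10, minimum total 15), which left 19797. TMM-scaled counts, with 0.5 added, were fitted by limma-voom (limma 3.58.1, R 4.3.3), and p-values were adjusted over all tested genes. RPKM were recomputed with TMM library sizes and the deposited lengths. The fits were tested on simulated data: of 200 genes changed 2-fold among 19797, 181 were recovered at p under 0.005 with both sexes, 152 in males, 146 in females, 135 for the difference and 177 for sex. In these fits 84 to 112 unchanged genes were called as well. Changes smaller than 2-fold were not simulated. Alternatives included edgeR's quasi-likelihood test and DESeq2 1.42.0. Replicate numbers did not pair the samples. Correlations used 100000 permutations within groups, in Python 3.11.15 with scipy 1.17.1.

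Members and gene lists were chosen with earlier results of these data known. Named genes were the members with p under 0.005 in any comparison, the 3 smallest p in each, the highest of each subunit class, the 5 with the largest spread, and partners by the same threshold or among the 2 smallest p. Scn1a, Scn2b, Scn3a, Cacna2d1 and the untested members were named for completeness, after their values were seen. Some items that meet these rules are not reported here. Sequences were read from Gencode M21 transcripts.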

Additional observations from a re-analysis of the deposited data

Results flagged for a closer look

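Among 92 group values of 23 named members, 4 samples stood apart from the rest of their group of 5 by Dixon's criterion, where chance flags about 1 in 20 groups. Cacna2d2 was at 6.04 log2 CPM in control female 3, above 4.72 to 5.04 in the other control females, and at 5.31 in nPM male 1, above 4.47 to 4.71 in the other nPM males. Scn3b was at 7.49 log2 CPM in control male 1, below 7.85 to 8.0 in the other control males. Scn7a was at 1.87 log2 CPM in nPM male 5, below 2.57 to 2.65 in the other nPM males. For Cacna2d2, both samples also held the highest summed thalamus markers of their group, 504.8 and 573.0 CPM, and the part of this was not tested.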

How the results depend on the processing

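The counts of channel genes with p under 0.005 were recomputed under each alternative. For nPM with both sexes and in females, dropping the filter on low counts gave 1 gene, Scn10a, which holds at most 14 counts. With both sexes, leaving out single samples gave 0 to 1, and the 1 was Cacna1s without control female 4. In males the replicate block gave 1 gene, Scn3b (log2 fold change 0.24), but correlations between same-numbered samples were -0.363 to 0.156, so the numbers do not pair the samples and the block changed no other count of nPM calls. The other alternatives, age as a covariate included, left 0 in these tests. For the sex difference, sample quality weights gave 13 genes, the summed intronic RNA as a covariate gave 1, and leaving out single samples gave 8 to 11. The fits by edgeR and DESeq2 and with protein-coding genes alone added members named above. With protein-coding genes alone, Cacna1e also passed (log2 fold change -0.27). The replicate block gave 8. Mitochondrial genes left out of the library size raised the control levels, to 63.4 RPKM for Scn2a and 59.1 RPKM for Scn2b. Genes with few counts, such as Cacna1s, are limited by depth.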
